A study of Mus musculus with 17 samples.

Results

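The genes described here are 10 genes used by or around neutrophils, chosen by name from the probes of a mouse colon array. They are the chemokines Cxcl1, Cxcl2 and Cxcl5, the chemokine receptor Cxcr2, the calcium-binding proteins S100a8 and S100a9, and the stefins Stfa1, Stfa2, Stfa2l1 and Cstdc4. Each had 1 probe among the 56605 probes of the array, so that a rule to take the brightest of several probes came into play for none, and Cstdc4 stands in the array files under its older name Gm5483. All 10 passed the filter of a signal well above the background on 4 or more arrays, as did 38703 probes in all, with 25029 gene or transcript names. The genes were put together with earlier results of these arrays known, so the changes given below describe them and cannot serve as independent support for a response to PCN.

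RNA of the colon was read on 17 arrays, 1 mouse each as labelled. WT mice were C57BL/6J males bought at 6 weeks of age, and Pxr-/- mice were males without the nuclear receptor PXR, backcrossed on the same background and bred in the animal facility, their age not being given in the labels. PCN (pregnenolone 16α-carbonitrile, which binds PXR of rodents) was injected into the peritoneum at 100 mg/kg each day during 4 days, dissolved in corn oil, and CONT mice received the oil alone. All mice were killed 6 h after the last injection. There were 5 arrays of Pxr-/- CONT mice and 4 of each of the other groups (WT CONT, WT PCN and Pxr-/- PCN).

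Some arrays with different labels were nearly the same. Over 38646 probes, the differences between the arrays labelled WT PCN 4 and Pxr-/- PCN 2 had an SD of 0.172 on the log2 scale. Those between WT PCN 3 and Pxr-/- CONT 2 had an SD of 0.198, against 0.297 to 0.616 in the other 134 pairs of arrays. For the 10 genes, the first pair differed by a median of 0.0365 and at most 0.177 (Cxcr2), and the other pair by a median of 0.130 and at most 0.380 (Cxcl2). Every comparison is therefore given on all 17 arrays and on the 13 arrays outside these pairs, which leaves 2 WT PCN, 4 WT CONT, 3 Pxr-/- PCN and 4 Pxr-/- CONT arrays. Nr1i2, which encodes PXR, was between 11.85 and 12.44 on the log2 scale on the WT arrays outside the pairs and between 10.39 and 11.93 on those of Pxr-/- mice. It read 11.10 and 11.15 on the arrays labelled WT PCN 3 and 4, within the range of the Pxr-/- arrays. Whether its probe lies in the deleted part of the gene is not given in the sources used here.

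Neutrophils are short-lived white blood cells that leave the blood for tissues in which epithelial cells, fibroblasts or macrophages release CXC chemokines. CXCL1, CXCL2 and CXCL5 carry the ELR motif and bind CXCR2 on the neutrophil, which guides the cell along the chemokine gradient. S100A8 and S100A9 form calprotectin, an abundant protein of the neutrophil cytosol that binds calcium and zinc and is measured in stool as a marker of intestinal inflammation. Stefins inhibit cysteine proteases such as cathepsins inside cells, and mice have a cluster of stefin A genes on chromosome 16 that is expressed in neutrophils, among other cells.

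The probes of S100a8, Stfa2l1 and Cstdc4 are shown as examples of the S100 and stefin genes, and because stefin genes are close copies of each other. The sequences are those of the array files, which place them in build mm9 at chr3:90473778-90473837 for S100a8, chr16:36160118-36161876 for Stfa2l1 and chr16:36188043-36188102 for Cstdc4, all on the plus strand. The Stfa2l1 probe is 60 bases long and spans an intron.
S100a8 probe: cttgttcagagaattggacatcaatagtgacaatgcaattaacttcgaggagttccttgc
Stfa2l1 probe: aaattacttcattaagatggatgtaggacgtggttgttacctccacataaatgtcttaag
Cstdc4 probe: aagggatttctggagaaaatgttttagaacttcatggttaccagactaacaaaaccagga
The 4 stefin probes shared runs of 5 to 9 bases at most with each other. They were not compared with the transcripts of the other stefins, so whether each reads its own gene alone was not tested. In the array files the Stfa2l1 probe is also annotated to a transcript of Stfa2, and its signal cannot be assigned to either gene alone.

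The stretch before the start of transcription was read from the RefSeq promoter table (GRCm38.p6), which matched 9 of the 10 genes, all but Cxcl5. The last 100 bases before the start are printed for Cxcl1 and Cxcl2, the chemokines whose genes lie side by side on chromosome 5, at chr5:90891145-90891244 and chr5:90903799-90903898 on the plus strand. Capitals mark matches to GGGA and TTCC with any 2 bases between them, a pattern bound by NF-κB, the factor that switches on many genes of inflammation.
Cxcl1: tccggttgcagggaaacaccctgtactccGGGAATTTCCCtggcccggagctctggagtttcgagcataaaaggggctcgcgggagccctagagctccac
Cxcl2: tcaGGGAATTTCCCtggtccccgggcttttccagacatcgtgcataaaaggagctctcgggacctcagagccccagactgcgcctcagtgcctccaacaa
Each promoter held the pattern on both strands, in matches that overlap, starting 71 bases before the start in Cxcl1 and 97 bases before it in Cxcl2. Of all 32851 promoters in the table, 397 (1.21%) held it on either strand in the 250 bases before the start. It was not found in the windows of Cxcr2, S100a8, S100a9 or the 4 stefins. The pattern TTGCNNAA, bound by C/EBP factors of myeloid cells, was found in S100a9 and Stfa1, and in 3142 (9.56%) of all promoters. A repeat of AGNTCA with any 4 bases between the copies, a pattern bound by PXR with its partner RXR, was in none of the 9 windows and in 34 (0.103%) of all promoters. These matches describe the letters of the windows and are not measurements of binding.

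The stefin promoters are shown because the 4 genes hold the same run of 16 bases just before the start, marked in capitals. They lie at chr16:36277048-36277147 (Stfa1), chr16:36408364-36408463 (Stfa2, minus strand), chr16:36156711-36156810 (Stfa2l1) and chr16:36184112-36184211 (Cstdc4).
Stfa1: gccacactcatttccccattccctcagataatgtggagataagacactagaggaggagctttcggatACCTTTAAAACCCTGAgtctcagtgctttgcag
Stfa2: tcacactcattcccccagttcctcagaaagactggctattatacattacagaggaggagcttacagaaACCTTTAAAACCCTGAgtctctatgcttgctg
Stfa2l1: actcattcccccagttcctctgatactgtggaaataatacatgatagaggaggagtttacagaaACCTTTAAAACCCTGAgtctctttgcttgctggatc
Cstdc4: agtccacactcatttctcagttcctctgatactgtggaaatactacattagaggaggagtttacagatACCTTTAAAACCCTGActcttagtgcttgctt
The run began 32 to 36 bases before the start. Among all promoters of the table it was found in 6 (0.0183%), of which Cstdc3 and Gm7260 are the other 2.

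The S100 genes had the largest measured differences between PCN and CONT among the 10 genes, in both genotypes. The log2 signal of S100a8 was 7.10, 7.75, 7.80 and 8.35 on the WT CONT arrays. It was 10.70 and 12.32 on WT PCN 1 and 2, 10.22 on the array labelled WT PCN 4 and 7.08 on the one labelled WT PCN 3. Apart from WT PCN 3, every WT PCN array thus lay above every WT CONT array. For Pxr-/- mice S100a8 was 5.73, 7.08, 6.91, 6.94 and 6.19 on CONT arrays, and 10.53, 10.15, 9.66 and 10.19 on PCN arrays. All Pxr-/- PCN arrays lay above all Pxr-/- CONT arrays, the highest CONT array being at 7.08 and the lowest PCN array at 9.66.

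For S100a9, the partner of S100A8 in calprotectin, the WT CONT arrays read 8.47, 8.97, 9.57 and 9.94. The WT PCN arrays read 12.28, 13.62, 8.66 and 11.76 in the order of their replicate numbers. WT PCN 3 was again the exception, inside the range of WT CONT. The CONT arrays of Pxr-/- mice read 7.22, 8.70, 8.32, 8.40 and 7.24, and the PCN arrays 12.39, 11.80, 11.15 and 11.63, with no overlap. Across the 13 arrays outside the near-identical pairs, S100a8 and S100a9 had a Pearson r of 0.995, and of 0.946 after the group means were removed, as a description.

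**Figure D1:**
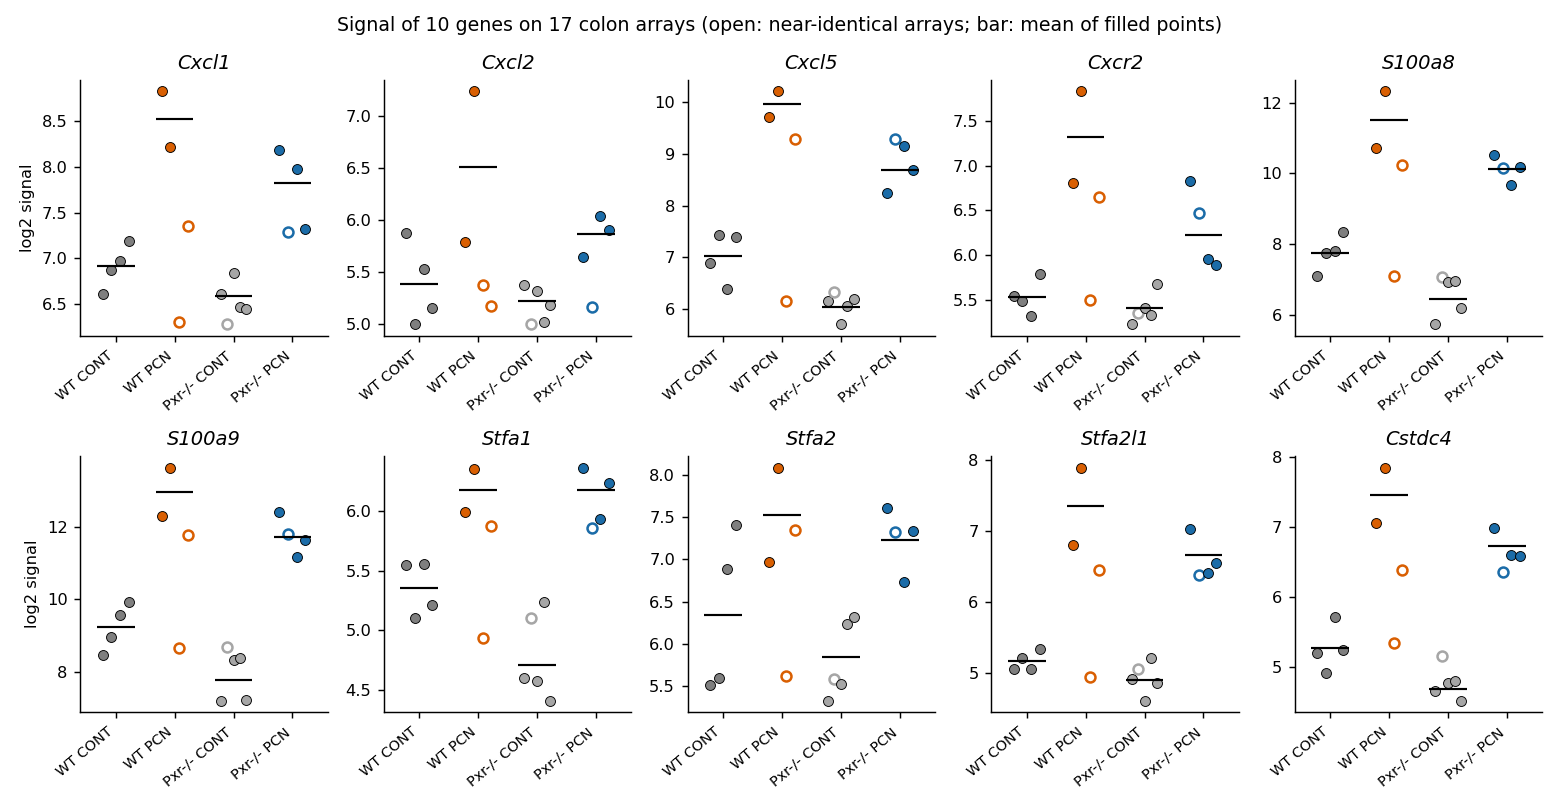
Log2 signal of the 10 genes (1 panel each, y axis; scales differ between panels) on the arrays of the 4 groups (x axis). Each point is 1 array, open points are the 4 arrays of the near-identical pairs, and bars are the means of the filled points. The WT PCN 3 array, the lowest open orange point in 9 of the 10 panels, lies with the CONT arrays, whereas the S100a8 values of all 4 Pxr-/- PCN arrays, 9.66 to 10.53, lie above those of the Pxr-/- CONT arrays.

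Of the chemokines, Cxcl5, which epithelial cells release, showed the widest separation. Its log2 signal was 6.90, 7.44, 6.39 and 7.39 on WT CONT arrays and 9.70, 10.20, 6.16 and 9.28 on WT PCN arrays. On the arrays of Pxr-/- mice it was 6.17, 6.33, 5.71, 6.06 and 6.21 on CONT arrays and 8.25, 9.28, 9.14 and 8.68 on PCN arrays. Again only WT PCN 3 was low among the PCN arrays of both genotypes.

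Cxcl1, a chemokine made by many cell types in inflammation, read 6.61, 6.87, 6.97 and 7.19 on WT CONT arrays and 8.83, 8.21, 6.30 and 7.35 on WT PCN arrays. On Pxr-/- CONT arrays it read 6.61, 6.28, 6.84, 6.47 and 6.45, and on Pxr-/- PCN arrays 8.19, 7.29, 7.97 and 7.31. The Pxr-/- groups did not overlap, with PCN arrays down to 7.29 and CONT arrays up to 6.84. Cxcl2, released mainly by macrophages and neutrophils, was well above the background on 6 of 17 arrays. Of CONT arrays these held 1 of WT and 0 of Pxr-/- mice, so Cxcl2 needed PCN arrays to reach the 4 arrays of the filter. It was highest on WT PCN 2, at 7.23, and at most 6.04 on the other 16 arrays, so that its groups overlapped in both genotypes when all arrays were used.

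The receptor Cxcr2, which neutrophils carry on their surface, was well above the background on 10 of 17 arrays. Of CONT arrays these held 2 of WT and 1 of Pxr-/- mice, so Cxcr2 needed PCN arrays to reach the 4 arrays of the filter. Under CONT its signal was 5.53 ± 0.19 (SD, n = 4) in WT mice and 5.40 ± 0.17 (SD, n = 5) in Pxr-/- mice. Under PCN it was 6.70 ± 0.95 (SD, n = 4) and 6.29 ± 0.44 (SD, n = 4). The Pxr-/- groups did not overlap, the lowest PCN array being at 5.89 and the highest CONT array at 5.68.

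Among the stefins, Stfa2l1 and Cstdc4 were not well above the background on any of the 9 CONT arrays, nor on the array labelled WT PCN 3. They were well above it on all 7 of the other PCN arrays. Both therefore passed the filter through PCN arrays alone, which favours a higher signal under PCN among tested genes, and their calls below are descriptions. Stfa2l1 was 5.05, 5.21, 5.04 and 5.33 on WT CONT arrays and 6.80, 7.89, 4.94 and 6.45 on WT PCN arrays. The Pxr-/- arrays read 4.90, 5.05, 4.60, 5.20 and 4.85 under CONT and 7.02, 6.38, 6.40 and 6.54 under PCN. Cstdc4 read 5.19, 4.91, 5.71 and 5.25 in WT CONT and 7.06, 7.85, 5.34 and 6.39 in WT PCN. For Pxr-/- mice it was 4.66, 5.15, 4.77, 4.80 and 4.52 in Pxr-/- CONT and 6.98, 6.36, 6.60 and 6.59 in Pxr-/- PCN. Both genes had higher signals on every Pxr-/- PCN array than on any CONT array of either genotype. Because their CONT signals are only bounds, their changes are lower bounds. On the 13 arrays outside the pairs, Stfa2l1 was at least 4.28-fold higher under PCN in WT mice and at least 2.68-fold higher in Pxr-/- mice. For Cstdc4 these bounds were at least 4.33-fold and at least 2.87-fold higher. The WT bounds rest on 2 WT PCN arrays. With all 17 arrays, on which all 4 Pxr-/- PCN arrays measured both genes, they were at least 2.55-fold higher in Pxr-/- mice for Stfa2l1 and at least 2.68-fold for Cstdc4. The bounds of both genes hold for the main processing only. Over the alternatives, the log2 fold change of Stfa2l1 in Pxr-/- mice went down to 1.01, and that of Cstdc4 also fell below its bounds.

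Stfa1 was well above the background on 8 arrays, namely all 4 Pxr-/- PCN arrays, 3 WT PCN arrays and 1 WT CONT array, so that it too passed the filter mainly through PCN arrays. Under CONT it was 5.35 ± 0.23 (SD, n = 4) in WT mice and 4.79 ± 0.36 (SD, n = 5) in Pxr-/- mice, and under PCN 5.79 ± 0.60 (SD, n = 4) and 6.10 ± 0.24 (SD, n = 4). Among Pxr-/- mice it was at least 1.81-fold higher under PCN with all arrays and at least 1.91-fold higher without the near-identical arrays. These bounds too hold for the main processing only, as the log2 fold change went down to 0.81 over the alternatives. Stfa2 had the widest spread among CONT arrays of the 4 stefins. In WT CONT it read 5.52 and 5.59 on CONT 2 and 3 and 6.88 and 7.40 on CONT 4 and 5, and WT PCN 1 (6.96) was lower than WT CONT 5. Its Pxr-/- arrays did not overlap, with 5.33 to 6.31 under CONT and 6.74 to 7.61 under PCN.

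All probes were fitted with limma, with a term for each group and for the wash bath, and genes with a fold change over 1.5 and an FDR not above 0.05 were called. Cxcl2, Cxcr2, Stfa1, Stfa2l1 and Cstdc4 needed PCN arrays to pass the filter. The filter favours a higher signal under PCN for them, and counts below that include them are descriptions. On all 17 arrays, 0 of the 10 genes were called higher under PCN in WT mice, where 0% of all probes were called higher, by limma. All 10 had higher means under PCN, with log2 fold changes from 0.46 (Stfa1) to 2.44 (S100a9) and a median of 1.30, against -0.00 over all probes. The unadjusted p was under 0.05 for 7 of the 10 genes, against 2.49% of all probes in that direction, and the adjusted p was 0.956 for each of them. For none of the 10 genes did the WT groups separate fully (1.36% of all probes did, higher under PCN).

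Without the 4 near-identical arrays, 4 of the 10 genes were called higher under PCN in WT mice (0.0491% of all probes were). These were Cxcl5 (7.58-fold, log2 fold change 2.92 ± 0.31 SE, limma adjusted p = 0.00664), S100a8 (13.5-fold, 3.76 ± 0.49 SE, adjusted p = 0.0289), Stfa2l1 (adjusted p = 0.0236) and Cstdc4 (adjusted p = 0.0106), the stefins having passed the filter only through PCN arrays. S100a9 (3.71 ± 0.55 SE, limma adjusted p = 0.0574), Cxcl1 (1.61 ± 0.25 SE, adjusted p = 0.0714) and Cxcr2 (1.79 ± 0.31 SE, adjusted p = 0.110) stood outside the threshold. The median log2 fold change of the 10 genes was 1.98, from 0.82 (Stfa1) to 3.76 (S100a8). With 2 arrays against 4, 8 of the 10 genes had groups that did not overlap, against 6.4% of all probes, and an exact permutation test cannot give a p under 0.133 in this design. The WT values of this paragraph rest on WT PCN 1 and WT PCN 2. Liver markers were also high on those arrays, as given below.

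Among Pxr-/- mice, 0 of the 10 genes were called on all 17 arrays, where 0.00517% of all probes were called higher. All 10 had higher means under PCN, with a median log2 fold change of 1.59, from 0.51 (Cxcl2) to 3.81 (S100a9), against 0.01 over all probes. The smallest limma adjusted p was 0.206, shared by S100a8, S100a9, Stfa1 and Cstdc4. At an unadjusted p under 0.05 there were 9 of the 10 genes (3.4% of all probes in that direction), Cxcl2 being the exception. In the same 9 genes every PCN array was above every CONT array, against 1.38% of all probes. In the exact two-sided permutation test these had a p of 0.0159, the smallest that 4 against 5 arrays can give. Among these 9, Cxcr2, Stfa1, Stfa2l1 and Cstdc4 needed PCN arrays to pass the filter, so the counts are descriptions.

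Without the near-identical arrays, 6 of the 10 genes were called higher in Pxr-/- mice, against 0.0439% of all probes. S100a8 was 13.2-fold higher (log2 fold change 3.72 ± 0.44 SE, limma adjusted p = 0.0243), S100a9 15.3-fold (3.94 ± 0.49 SE, adjusted p = 0.0306) and Cxcl5 6.45-fold (2.69 ± 0.27 SE, adjusted p = 0.0196). The others were the stefins Stfa1 (limma adjusted p = 0.0424), Stfa2l1 (adjusted p = 0.0424) and Cstdc4 (adjusted p = 0.0196), which passed the filter only or mainly through PCN arrays. Cxcl1, Cxcl2, Cxcr2 and Stfa2 had log2 fold changes of 1.21 ± 0.22, 0.68 ± 0.29, 0.82 ± 0.28 and 1.30 ± 0.46 (SE), and adjusted p between 0.202 and 0.659 by limma. All 10 genes had groups that did not overlap, against 3.35% of all probes, with an exact permutation p of 0.0571, the smallest that 3 against 4 arrays can give. Cxcl2, Cxcr2, Stfa1, Stfa2l1 and Cstdc4 count here although they needed PCN arrays to pass the filter. Cxcl2 was not well above the background on any Pxr-/- CONT array, so its change is from a signal at the background.

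**Figure D2:**
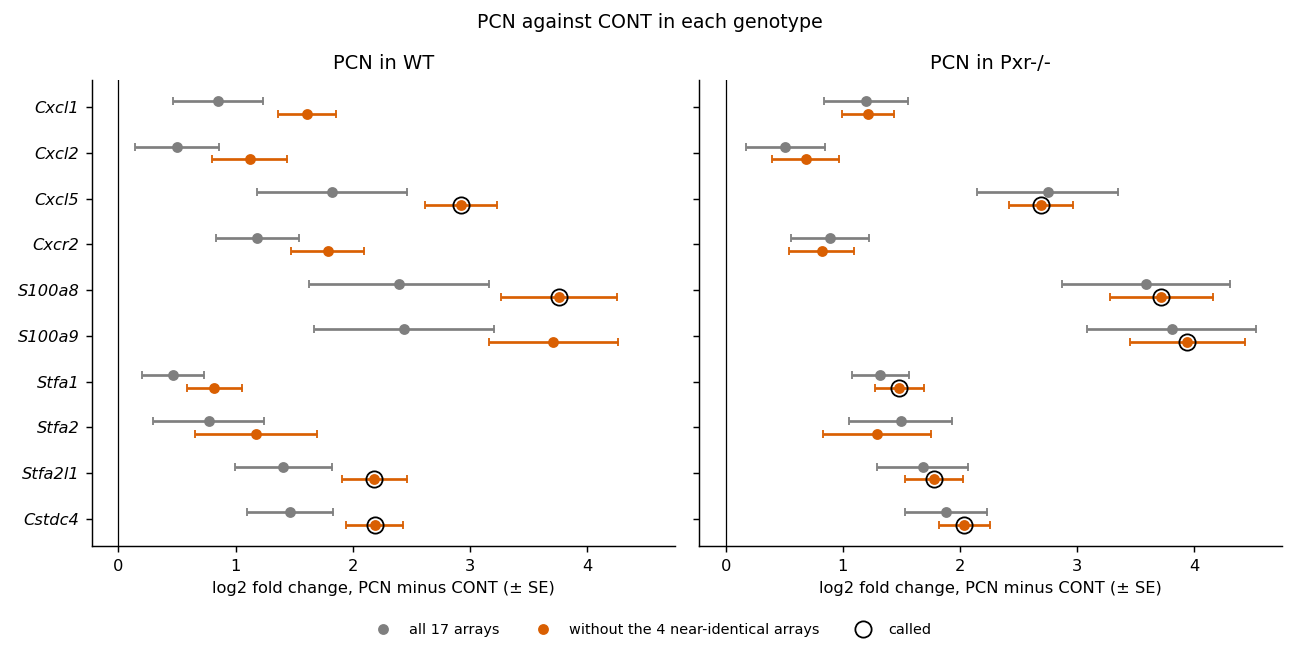
Log2 fold change of PCN against CONT (x axis, ± SE of the limma fit) for the 10 genes (y axis) in WT (left) and Pxr-/- mice (right), on all 17 arrays (grey) and without the 4 near-identical arrays (orange). Circled points were called. Leaving out the 4 arrays moved the median of the 10 genes from 1.30 to 1.98 in WT mice and from 1.59 to 1.63 in Pxr-/- mice.

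The near-identical arrays counted differently in the genotypes. Leaving out only the arrays labelled WT PCN 3 and 4, 7 of the 10 genes were called in WT mice (all but Cxcl2, Stfa1 and Stfa2), against 0.101% of all probes, and 6 in Pxr-/- mice, against 0.0646%. Leaving out only the arrays labelled Pxr-/- CONT 2 and Pxr-/- PCN 2, 0 were called in either genotype, as were 0% of all probes. The WT count was 5 without WT PCN 3 (0.0465% of all probes called higher) and 0 without any other single WT array. When the Pxr-/- groups were fitted alone, 5 genes were called (0.0465% of all probes). The numbers of arrays labelled as PCN that showed S100a8 above every CONT array of their genotype were 3 of 4 in WT mice and 4 of 4 in Pxr-/- mice.

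The difference between the genotypes in the response to PCN was tested by the interaction term. On all 17 arrays 0 of the 10 genes were called, as were 0% of all probes, and 1 of the 10, Stfa1, had an unadjusted p under 0.05 (5.38% of all probes did). The interaction of Stfa1, the Pxr-/- response minus the WT response, was 0.86 ± 0.36 (SE) on the log2 scale with a limma adjusted p of 0.848. It rests on CONT signals of which only 1 WT array and 0 Pxr-/- arrays were well above the background. Without the near-identical arrays 0 of the 10 genes were called, against 0.00258% of all probes, and 1 of the 10, Cxcr2, had an unadjusted p under 0.05 (2.95% of all probes), at -0.97 ± 0.41 (SE). The interaction was -0.04 ± 0.66 (SE) for S100a8, 0.23 ± 0.74 (SE) for S100a9 and -0.23 ± 0.41 (SE) for Cxcl5. Standard errors of this size cover responses that differ by more than the fold change of 1.5 used for calls, and these values do not show that both genotypes responded alike. The direction of the interaction turned for 6 genes between all 17 and the 13 arrays.

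Among CONT mice, the 10 genes all had lower means in Pxr-/- than in WT mice, and none was called by limma, with all arrays (0% of all probes called lower) or without the near-identical arrays (0% again). With all arrays, 1 of the 10 genes had an unadjusted p under 0.05 against 6.52% of all probes, namely Stfa1. Without them there were 5, namely Cxcl5, S100a8, S100a9, Stfa1 and Cstdc4, against 5.59%. S100a8 was 2.48-fold lower in Pxr-/- CONT (log2 fold change -1.31 ± 0.40 SE, limma adjusted p = 0.314), S100a9 2.72-fold (-1.44 ± 0.45 SE, adjusted p = 0.318) and Cxcl5 1.99-fold (-0.99 ± 0.25 SE, adjusted p = 0.216). The CONT arrays of both genotypes did not overlap for these 3 genes and Cstdc4 on the 13 arrays, against 3.73% of all probes, with an exact permutation p of 0.0286, the smallest that 4 against 4 can give. With all arrays this held for 2 of the 10 genes, Cxcl5 and S100a8, against 3.02%. Cxcl2, Stfa1, Stfa2l1 and Cstdc4 were well above the background on 0 Pxr-/- CONT arrays and at most 1 WT CONT array. Their differences between CONT groups are between signals at the background and do not measure a difference of expression. These CONT arrays are shared with the comparisons of PCN, so a lower Pxr-/- CONT level enters the Pxr-/- fold change as well. The PCN arrays can be set side by side without that, and on the 13 arrays S100a8 was 11.51 ± 1.14 (SD, n = 2) in WT PCN and 10.13 ± 0.43 (SD, n = 3) in Pxr-/- PCN. Cxcl5 was 9.95 ± 0.35 (SD, n = 2) and 8.69 ± 0.45 (SD, n = 3) in these groups. WT mice were bought and Pxr-/- mice bred in the facility, so differences of genotype and of origin cannot be told apart. Liver markers were high on WT CONT 5 and pancreas markers on WT CONT 4, as given below.

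The 17 arrays lay on 8 slides and went through 2 wash baths. A PCN and a CONT array of the same genotype shared a slide in 6 cases. In 5 of them, 2 of WT and 3 of Pxr-/- mice, all 10 genes were higher on the PCN array. In the sixth, WT PCN 3 and WT CONT 3, 4 of the 10 genes were. Without the pairs that hold a near-identical array, 3 pairs with all 10 genes higher remained, 2 of WT and 1 of Pxr-/- mice. For S100a8 the same-slide differences were 5.22 (WT PCN 2 minus CONT 2), 2.90 (WT PCN 1 minus CONT 4) and -0.67 (WT PCN 3 minus CONT 3) on the log2 scale. On Pxr-/- arrays they were 3.45 (PCN 1 minus CONT 2), 3.21 (PCN 2 minus CONT 4) and 4.00 (PCN 4 minus CONT 5). Within wash bath 1, S100a8 under PCN differed from CONT by 2.45 in WT mice and 2.98 in Pxr-/- mice, and within wash bath 2 by 2.62 and 4.03. Stfa2 in WT mice was the one case with different directions in the baths, at 1.46 in bath 1 and -0.18 in bath 2, which held a single WT PCN array.

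**Figure D3:**
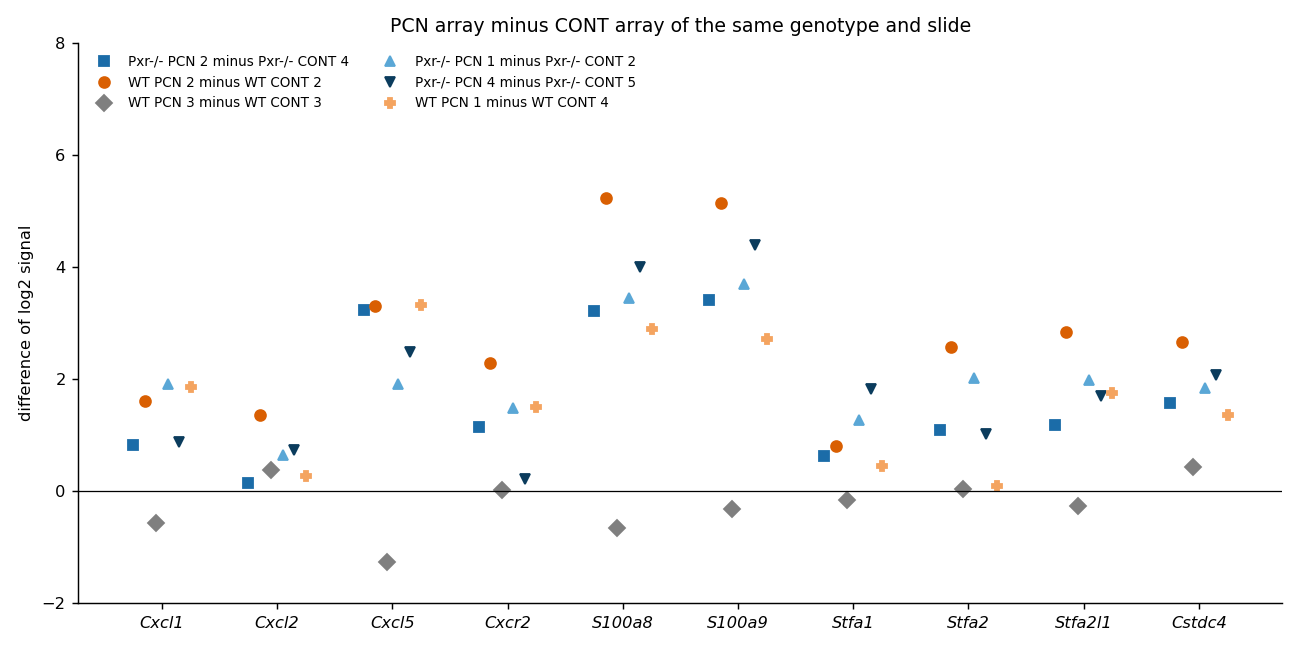
Difference of log2 signal (y axis) between a PCN array and a CONT array of the same genotype on the same slide, for each of the 10 genes (x axis). Each symbol is 1 pair of arrays (6 pairs). Of the pairs, 5 lie above 0 for all 10 genes, and WT PCN 3 minus WT CONT 3 (grey) is above 0 for 4 genes.

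Other genes of neutrophils were measured to see how far the change went. Of 24 genes on this list, 21 were tested, and on the 13 arrays 16 of them had higher means under PCN in WT mice and 16 in Pxr-/- mice. Their median log2 fold change was 0.92 in WT and 0.75 in Pxr-/- mice, and on all 17 arrays 0.32 and 0.81. Over all probes, 48.9% were higher under PCN in WT and 52.6% in Pxr-/- mice on the 13 arrays. Il1b, the gene of the cytokine interleukin 1β, which induces CXC chemokines, was the one gene of this list that was called, in WT mice without the near-identical arrays (log2 fold change 1.79). The value in Pxr-/- mice was 0.89, with a limma adjusted p of 0.091. The 5 genes of the list with the highest mean signal are given next, on the 13 arrays. Csf3r, the receptor for the growth factor of granulocytes, had log2 fold changes of -0.02 ± 0.09 (SE) in WT and -0.04 ± 0.08 (SE) in Pxr-/- mice. Its probe had a mean log2 signal of 15.71 over all 17 arrays, against 11.05 for Ly6g. Whether these probes read neutrophil RNA alone was not tested. Ly6g, which encodes a surface marker of mouse neutrophils, had -0.11 ± 1.15 and 0.75 ± 1.02 (SE). Trem1, a receptor that amplifies inflammation, had 0.07 ± 0.10 and 0.13 ± 0.09 (SE). Cd177, a surface protein of neutrophils, had -0.89 and -1.18, and Lrg1, a secreted glycoprotein, 0.63 and 0.83. None of these 5 genes was called. Genes of the list with larger changes, chosen after their values were seen, were the lectin receptors Clec4d (2.78 in WT and 2.51 in Pxr-/- mice) and Clec4e (2.42 and 2.77), and Retnlg (2.37 and 1.60), none of which was called. Camp, of the same list and also named after its values were seen, was lower and not called. Its log2 fold change was -0.11 in WT and -0.63 ± 0.10 (SE) in Pxr-/- mice, the latter with a limma adjusted p of 0.091. Mpo and Elane, which encode granule enzymes made by neutrophil precursors in the bone marrow, had log2 fold changes of 0.36 and -0.04 in WT and -0.01 and -0.02 in Pxr-/- mice. In RNA of colon tissue, more cells of a type and more RNA per cell cannot be told apart. Which cells gave the signals was not measured.

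A list of inducers of CXC chemokines and of regulators of their signals had 13 of its 20 genes tested. In WT mice on the 13 arrays, 11 of them were higher (48.9% of all probes were), with a median of 0.32. Il1b and Il33 were called, where 0.0491% of all probes were called higher. Il33 encodes an alarm cytokine of epithelial and stromal cells, and its log2 fold change was 1.93 in WT mice (limma adjusted p = 0.037) and 1.61 in Pxr-/- mice (adjusted p = 0.052). Among Pxr-/- mice 10 of 13 were higher (52.6% of all probes were), with a median of 0.15 and none called. The higher genes included Nfkbia and Il1rn, which restrain these signals, with log2 fold changes of 0.43 and 0.32 in WT and 0.15 and 0.53 in Pxr-/- mice. Tnfaip3, which also restrains them, was practically unchanged, at 0.0047 in WT and 0.0016 in Pxr-/- mice. On all 17 arrays, 8 of 13 were higher in WT and 10 of 13 in Pxr-/- mice, against 49.9% and 52.0% of all probes, and none was called.

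Related families were measured on the same arrays, and whether they differed from the 10 genes was not tested. Of the other CXC chemokines, 4 of 10 were higher in WT and 7 of 10 in Pxr-/- mice on the 13 arrays, with medians of -0.01 and 0.17. Of the CC chemokines, which attract monocytes, lymphocytes and eosinophils, 9 of 15 and 11 of 15 were higher, with a median of 0.26 in both genotypes. Of the other S100 genes, 11 of 12 and 8 of 12 were higher, with medians of 0.26 and 0.04. Of the other stefins and cystatins, 3 of 7 and 7 of 7 were higher, with medians of -0.02 and 0.25. Of the chemokine receptors, 6 of 14 and 7 of 14 were higher, with medians of -0.25 and 0.01. None of these genes was called in either genotype. Over all probes, 48.9% were higher in WT and 52.6% in Pxr-/- mice. The mean log2 signal of the CC chemokines was 10.47 to 10.61 on Pxr-/- PCN arrays, above the 9.89 to 10.13 of Pxr-/- CONT arrays, and that of the other CXC chemokines 9.98 to 10.27, above 9.65 to 9.91. The largest log2 fold changes in these families were 1.83 in WT and 1.48 in Pxr-/- mice for other CXC chemokines and 2.18 and 2.22 for CC chemokines.

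The genes with the signals most like those of S100a8 were ranked among 24991 genes by Pearson r over the 13 arrays. The closest were Timp1, an inhibitor of metalloproteases (r = 0.963), the chemokine Ccl2 (r = 0.951), the acute-phase protease inhibitor Serpina3n (r = 0.951), Clec4e (r = 0.939) and the transcript ENSMUST00000163110 (r = 0.938). Serpina3n was called in Pxr-/- mice, with a log2 fold change of 1.58 (limma adjusted p = 0.024) and 1.44 in WT mice (adjusted p = 0.055). For Cxcl2 the closest were Cxcl3, a chemokine of the same family (r = 0.907), Ccl3 (r = 0.890), Dpep2 (r = 0.879), Egr2 (r = 0.873) and Mirt2 (r = 0.865). For Stfa2l1 they were ENSMUST00000077110 (r = 0.974), Ccl2 (r = 0.944), Gp49a (r = 0.938), Fam167a (r = 0.937) and Hcar2 (r = 0.935). These values are descriptions over arrays that share the same groups. Within the members, r ranged from 0.570 (Cxcl2 and Stfa2) to 0.995 (S100a8 and S100a9). After the group means were removed, r ranged from -0.54 (Cxcl1 and Cxcl2) to 0.946 (S100a8 and S100a9).

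The markers of the labelled tissue were measured, all 10 colonocyte, 7 goblet cell and 7 smooth muscle genes being well above the background on every array. Liver and pancreas markers were high on some arrays. The mean log2 signal of 7 liver genes was 11.32 on WT CONT 5, 8.73 on WT PCN 1 and 8.61 on WT PCN 2, and between 6.45 and 6.98 on the other 14 arrays. That of 8 pancreas genes was 17.66 on WT CONT 4, 15.28 on WT PCN 3, 15.23 on Pxr-/- CONT 2 and 10.54 on WT PCN 1, and at most 5.86 elsewhere. On the Pxr-/- PCN arrays the liver mean was 6.45 to 6.84 and the pancreas mean 5.57 to 5.86. The mean of 4 genes of the distal colon was 6.54 on Pxr-/- PCN 4 and 8.38 to 11.36 on the other arrays.

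Macrophage and monocyte genes, 12 of 12 well above the background on every array, had mean log2 signals of 11.73 to 12.48 in WT PCN, 11.69 to 12.29 in WT CONT, 11.77 to 12.08 in Pxr-/- PCN and 11.56 to 11.85 in Pxr-/- CONT. Their median log2 fold change on the 13 arrays was 0.47 in WT and 0.31 in Pxr-/- mice, and none was called. Squamous epithelium, which also expresses stefins and S100 genes, had 10 to 12 of its 12 genes well above the background, with means of 7.86 to 8.50 in WT PCN and 7.62 to 8.19 in WT CONT, and of 7.80 to 7.89 in Pxr-/- PCN and 7.62 to 8.21 in Pxr-/- CONT. Smooth muscle genes had higher means under PCN for 0 of 7 genes in Pxr-/- mice and for 6 of 7 in WT mice on the 13 arrays, with median log2 fold changes of -0.47 and 0.08. Their mean log2 signal was 14.79 to 15.25 on Pxr-/- PCN arrays and 15.05 to 15.65 on Pxr-/- CONT arrays. The mean of the mast cell and eosinophil genes was 7.62 to 8.13 in Pxr-/- PCN, above the 7.30 to 7.57 of Pxr-/- CONT, and 7.31 to 8.23 in WT PCN against 7.58 to 8.12 in WT CONT. Of the adipocyte genes, 1 of 6 had a higher mean under PCN in either genotype on the 13 arrays, with medians of -0.81 in WT and -1.02 in Pxr-/- mice. Their mean signal was 7.75 to 9.32 in WT PCN and 8.94 to 10.59 in WT CONT, and 7.08 to 8.35 in Pxr-/- PCN and 8.19 to 9.85 in Pxr-/- CONT. No gene of these 3 lists was called. The part of these cell types and tissues in the changes of the 10 genes was not tested. The mean of the 21 other neutrophil genes was 8.07 to 8.60 in Pxr-/- PCN, above the 7.57 to 7.77 of Pxr-/- CONT. In WT mice it was 9.18 and 8.79 on WT PCN 2 and 1, and 7.74 and 8.28 on WT PCN 3 and 4, against 7.87 to 8.34 in WT CONT.

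**Figure D4:**
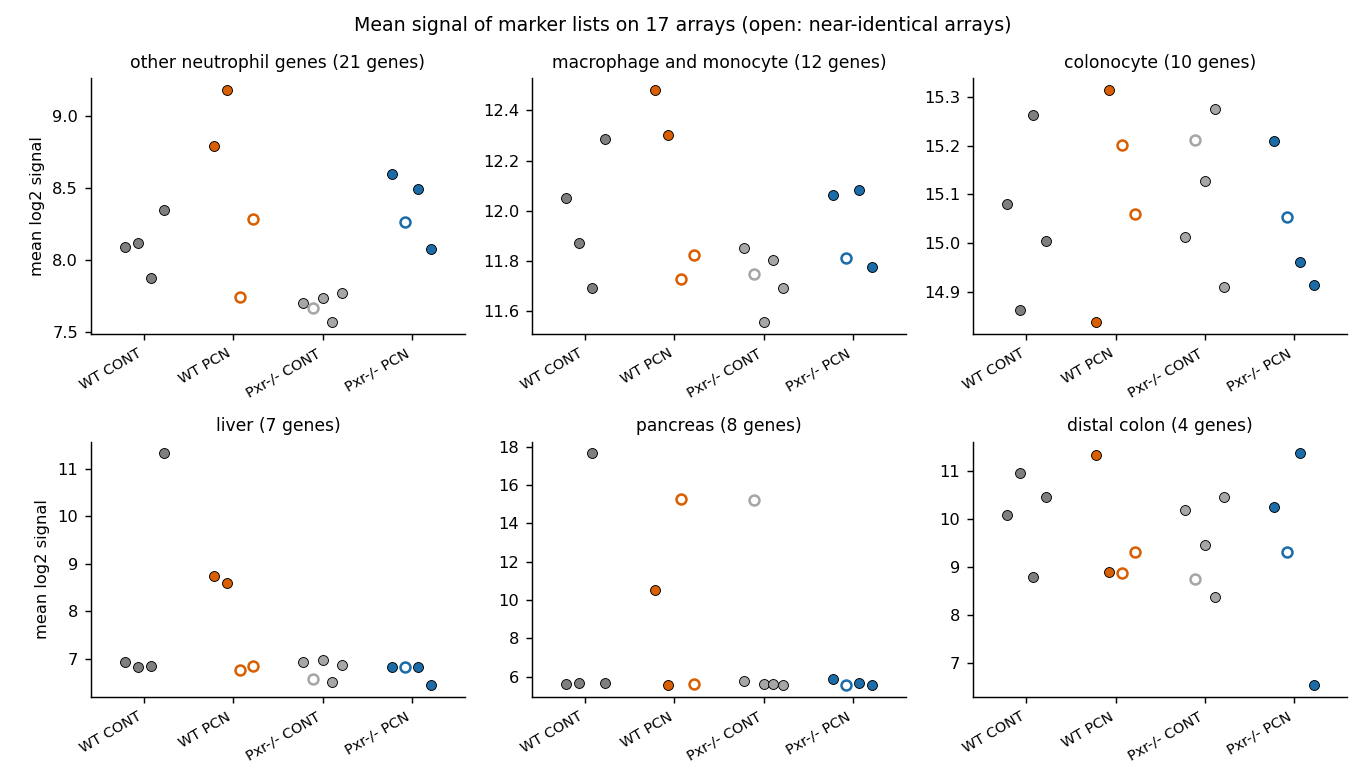
Mean log2 signal (y axis; scales differ between panels) of 6 marker lists on the arrays of the 4 groups (x axis). Each point is 1 array and open points are the 4 near-identical arrays. Other neutrophil genes were at 8.07 to 8.60 on Pxr-/- PCN arrays and at 7.57 to 7.77 on Pxr-/- CONT arrays, whereas liver and pancreas genes stood out on single arrays, up to 11.32 and 17.66.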

How the data were processed

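Cy3-labelled RNA of mouse colon was read on 17 Agilent 1-colour arrays. The article reports liver arrays of mice of the same design, which are not analysed here. The authors deposited the scanner output (Feature Extraction 10.10.1.1, per the labels), in which each spot has a median and mean intensity and a local background intensity, without normalization between arrays. They also deposited a table of log2 values, normalized and corrected for the wash bath per the methods, in which the probe of Cxcl2 is missing. The members and lists were chosen with earlier results of these data known.

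The median intensity of 59305 spots was taken as log2 without outlier spots (74 to 142 per array), quantile-normalized in place of the article's CrossNorm, and averaged per probe. Tested probes had to exceed the background clearly, by the scanner's flag on at least 0.5 of their spots, on 4 or more arrays. The arrays had 62.7% to 71.0% of spots well above the background, a median background of 20 to 28 units and 0 saturated spots. Names came from RefSeq GRCm38.p6 by accession (32994 probes) or from the files. The model, fitted with limma 3.58.1 (R 4.3.3), held the 4 groups and the bath, with Benjamini-Hochberg adjustment over all probes. Exact two-sided permutation tests had no bath term. A bound for a gene not well above the background in a group takes, per array, the higher of its own signal and the lowest signal of a probe well above the background. Named genes were the members, Nr1i2, genes of the lists that were called, the 5 other neutrophil genes with the highest mean signal, and the 5 genes most like S100a8, Cxcl2 and Stfa2l1; others were named after their values were seen. List medians use 1 probe per gene, the one with the highest mean. That the arrays are of separate mice rests on the labels. Their number limits the precision. Alternatives were the deposited log2 values, the intensity corrected by the scanner and centred on its 75th percentile, normexp with an offset of 50, other filters, no bath term, slide or replicate blocks, only the groups of the contrast, the near-identical arrays or each array left out, other eBayes settings and the mean of a gene's probes.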

Additional observations from a re-analysis of the deposited data

How the results depend on the processing

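In WT and Pxr-/- mice, the means of all 10 genes were higher under PCN in every alternative in which they were tested. Counts of called genes moved with the arrays used. Without the 4 near-identical arrays they were 4 in WT and 6 in Pxr-/- mice, against 0.0491% and 0.0439% of all probes called higher. Without WT PCN 3 and 4 they were 7 and 6, against 0.101% and 0.0646%. With the arrays of a contrast fitted alone, 5 were called in Pxr-/- mice, against 0.0465%. Leaving out 1 array gave 0 to 5 called genes in WT mice (0% to 0.0465% of all probes) and 0 in Pxr-/- mice. All other alternatives, the authors' log2 values included, gave 0 in both, and none was called in the other 2 comparisons. The cause was not tested. The replicate numbers did not pair the arrays (r of deviations from -0.33 to 0.49 in 22 pairs, 11 of them over 0.1), and with a replicate block 0 genes were called. In the exact permutation test, 9 genes had a p of at most 0.05 in Pxr-/- mice and 0 did without the 4 near-identical arrays, where it cannot be reached with 3 against 4 arrays. Between CONT mice 5 genes did, and 2 to 4 when 1 array was left out. The share of all probes with such a p was not computed, so these counts are descriptions only. Cstdc4, among the 5, was not well above the background on any CONT array. The setting without a bath term was not run for this test, which has none.

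The interaction turned its sign without the 4 near-identical arrays for Cxcl1 (-0.40), Cxcl2 (-0.43), Cxcl5 (-0.23), S100a8 (-0.041), Stfa2l1 (-0.41) and Cstdc4 (-0.15). Without WT PCN 3 and 4 it did so for Cxcl1 (-0.43), Cxcl2 (-0.63), Cxcl5 (-0.20), S100a8 (-0.21), Stfa2l1 (-0.52) and Cstdc4 (-0.33). That of Cxcl2, near 0 on all arrays, also turned with normexp (-0.0066), the slide as a fixed block (-0.33) and the replicate block (-0.0084), and that of Cxcr2 with the processed signal (0.17). With the slide block, Cxcl2 was higher in Pxr-/- than in WT CONT (0.12). Leaving out 1 array, the interaction ranged from -0.074 to 0.76 for Cxcl1, -0.23 to 0.44 for Cxcl2, -0.68 to 0.087 for Cxcr2 and -0.23 to 0.74 for Stfa2l1. The size of change of dim genes depended on the background correction: the log2 fold change of Stfa2l1 in Pxr-/- mice was 1.68 on all arrays, 1.01 with normexp and 3.73 with the processed signal.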
